A study of Homo sapiens with 6 samples.

Results

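The epithelial-mesenchymal set consisted of 10 genes that were followed in RNA sequencing of HK-2, an immortalized human cell line derived from the proximal tubule of the kidney. It was made of the cadherins CDH1 and CDH2, the mesenchymal proteins VIM and FN1, the transcription factors SNAI1, SNAI2, ZEB1, ZEB2 and TWIST1, and the chromatin protein gene HMGA2. The members were chosen by gene symbol, all 10 were found among the 31369 genes of the count table and the 30896 genes of the FPKM table, and all 10 were among the 15878 genes with enough counts to be tested. FPKM counts fragments relative to transcript length and sequencing depth, so that genes can be compared per length. Such comparisons between genes depend on the transcript length that the authors used for each gene, which is not given in the sources used here.

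The study compared 3 control samples (NC) with 3 samples overexpressing the phosphatase gene PPM1K (OE). According to the sample labels, NC carried a wild type genotype and OE the PPM1K overexpression genotype, and every sample of both groups shared the cell type HK-2, day 10 and a treatment entry that names chronic kidney disease. The titles speak instead of short hairpins, a control hairpin for NC and one named for PPM1K for OE, which conflicts with the genotype entries. The study's methods describe a PPM1K plasmid delivered with a lipid reagent and no control plasmid, so plasmid delivery and PPM1K itself cannot be told apart here. The labels do not say whether the samples of a group were separate cultures, and p-values therefore measure only the spread between these samples, which may be technical.

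PPM1K was counted 19 to 53 times in the NC samples and 2919 to 3531 times in the OE samples, which fits the genotype entries and goes against the titles. Total counts were 34635770 to 36116963 in NC and 36033404 to 39850802 in OE. NC replicate 2 stood apart from the others, with 26478 genes counted at least once against 22094 to 22913 in the other samples. OE replicate 3 lay furthest from its own group, with a mean chi-square per gene of 10.98 and 9.931 against the other OE samples, compared with 5.674 between those and 4.833 to 6.668 within NC. Without OE replicate 3, 3 members were still called higher and 3 lower. Of 12 proximal tubule markers, LRP2 had at most 3 counts in every sample and 5 were abundant enough to be tested, while the nephron epithelium factor PAX8 had a mean count of 8889. CUBN and AQP1 had at most 6 and 5 counts in any sample, so LRP2, CUBN and AQP1, defining markers of the labelled tissue, were at or near 0. The 5 tested markers had mean counts from 12.5 (SLC34A1) to 91.67 (GATM).

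In the epithelial-mesenchymal transition, epithelial cells loosen their junctions and take on a migratory shape with a matrix-rich surrounding. The SNAI, ZEB and TWIST factors bind E-box sequences and repress CDH1, which encodes E-cadherin, the adhesion protein of epithelial junctions. A shift from E-cadherin to N-cadherin (CDH2), with more vimentin and fibronectin, is the customary readout of that transition, and in kidney tubule cells it is studied in connection with fibrosis. HMGA2 is a chromatin protein that bends AT-rich DNA, is mostly silent in adult tissue, and is known to induce SNAI1, SNAI2 and TWIST1.

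The 10 members did not move in a single direction. HMGA2, SNAI2 and ZEB2 rose, CDH1, FN1 and VIM fell, and CDH2, SNAI1, ZEB1 and TWIST1 did not pass the test. A gene passed where edgeR's quasi-likelihood test gave an adjusted p below 0.05. Of all tested genes, 24.9% rose and 23.7% fell by that rule, so 48.6% changed in either direction and a count of 6 changed members of 10 lies close to the background. The median of the log2 fold changes, taken as OE over NC throughout, was -0.025 over the 10 members and -0.0032 over all tested genes. The median size of the change without its sign was 0.36 for the members and 0.27 for all tested genes.

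With the added condition of the study, a fold change above 2 or below 0.5, only HMGA2 and CDH1 remained of the 10 members. By that rule 5.51% of all tested genes were called. In CPM, the counts scaled to library size by the TMM method, the groups did not overlap for 6 of the 10 members, and for 55.3% of all tested genes. The exact two-sided permutation test gave p = 0.1 for each of those 6 members, the smallest value that 3 samples against 3 can give.

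**Figure D1:**
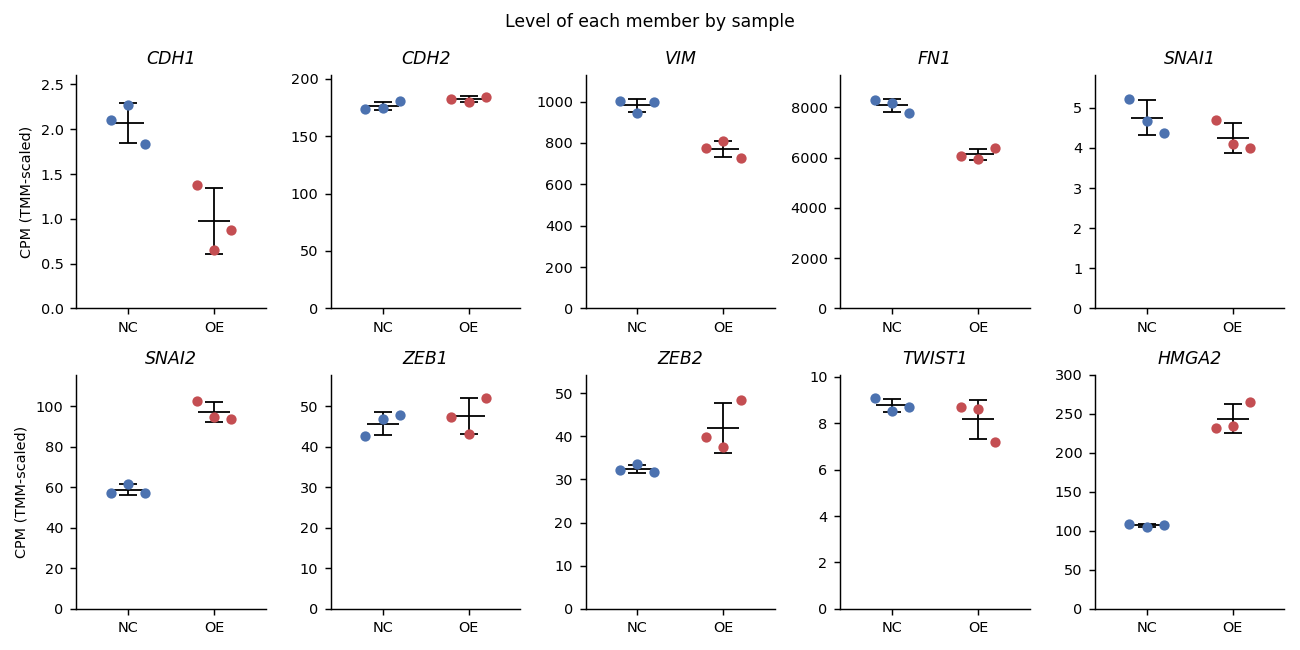
CPM of each of the 10 genes (vertical axis, from 0) in the 3 NC and 3 OE samples; each point is a sample, the wide tick is the mean and the bars are 1 SD. The HMGA2 points lie between 105.3 and 109.1 in NC and between 232.5 and 264.9 in OE, while the NC and OE points of CDH2, SNAI1, ZEB1 and TWIST1 overlap.

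**Figure D2:**
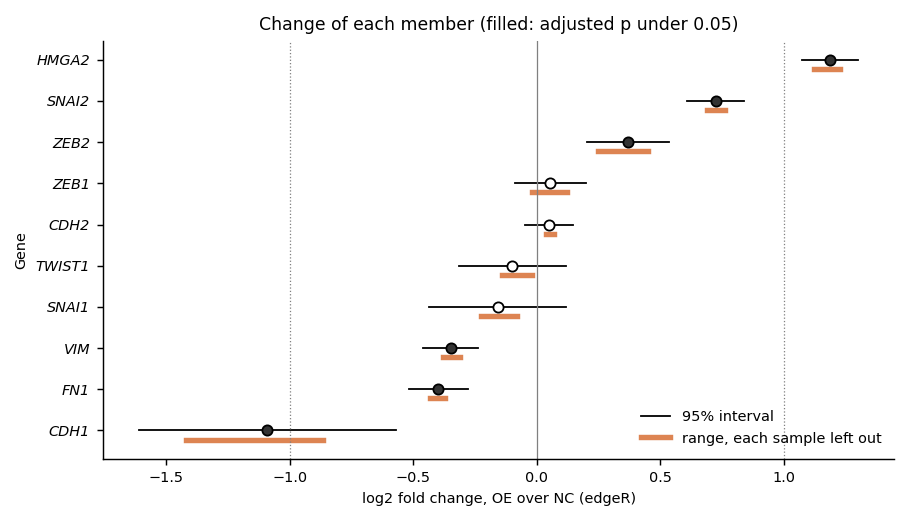
Log2 fold change of OE over NC for each gene (horizontal axis), with the 95% interval as a black line and, as an orange bar below it, the range when each sample was left out in turn; filled points passed at an adjusted p under 0.05, and dotted lines mark a 2-fold change. Only HMGA2 (1.19) and CDH1 (-1.09) lie beyond the dotted lines.

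CDH1, which encodes E-cadherin, was the least abundant member and fell in OE. Its counts were 73, 80 and 66 in the NC samples and 51, 26 and 32 in the OE samples, each in order of replicate number. Every NC sample was therefore above every OE sample, although OE replicate 1 came much closer to NC than the others. In CPM it was 2.07 ± 0.220 in NC and 0.973 ± 0.371 in OE (SD, n = 3 each), which is a log2 fold change of -1.09 (SE 0.25, 95% interval -1.61 to -0.57, adjusted p = 0.00108). Without OE replicate 2 the log2 fold change was -0.86 (adjusted p = 0.00919), which no longer reached a 2-fold change, and without OE replicate 1 it was -1.42. With counts this low, E-cadherin mRNA was close to the bottom of the measurable range in both groups, at 0.28 to 0.34 FPKM in NC and 0.10 to 0.21 FPKM in OE. CDH1 lies on the plus strand of chromosome 16, from 68737292 to 68835537 (GRCh38, GENCODE 44). Its overlapping antisense RNA ENSG00000260798 had at most 2 counts in any sample.

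CDH2, which encodes N-cadherin, was the main classical cadherin of the pair in every sample. It was counted 6034, 6134 and 6478 times in NC and 6744, 7096 and 6689 times in OE. In CPM the groups overlapped, with 175.9 ± 3.68 in NC and 182.1 ± 2.39 in OE (SD, n = 3 each). The log2 fold change was 0.05, with a 95% interval of -0.05 to 0.15 (adjusted p = 0.411), which leaves room for little change of CDH2 in either direction. CDH2 spans 27932879 to 28177946 on the minus strand of chromosome 18.

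The balance of both cadherins was read from FPKM, which allows genes to be compared per length. The ratio of CDH2 FPKM to CDH1 FPKM was 58.84, 54.26 and 69.21 in the NC samples and 93.24, 195.7 and 145.1 in the OE samples. The ratio was higher in each OE sample than in each NC sample, with means of 60.77 ± 7.659 (SD, n = 3) and 144.7 ± 51.23 (SD, n = 3). The denominator of the ratio rests on 26 to 51 CDH1 counts in OE, and CDH2 in the numerator did not pass the test. No test was made of the ratio itself.

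FN1 and VIM, both customary mesenchymal markers, fell in OE. FN1 encodes fibronectin, a secreted matrix glycoprotein, and VIM encodes vimentin, the intermediate filament of mesenchymal cells. FN1 counts were 288337, 287404 and 280193 in NC and 224317, 234693 and 231723 in OE. In CPM this was 8081 ± 257 in NC and 6129 ± 227 in OE (SD, n = 3 each), a fold of 0.759 (log2 fold change -0.40, SE 0.06, adjusted p = 6.69e-06). All 3 OE samples of FN1, at 5935 to 6378 CPM, lay below all 3 NC samples, at 7792 to 8286 CPM. VIM counts were 34932, 33290 and 35843 in NC and 28658, 31974 and 26510 in OE. The VIM level dropped from 982 ± 31.7 CPM (SD, n = 3) to 772 ± 39.6 CPM (SD, n = 3), a fold of 0.786 (log2 fold change -0.35, SE 0.05, adjusted p = 1.5e-05). The samples of VIM did not overlap either, with 945.8 to 1004 CPM in NC and 729.7 to 808.6 CPM in OE. Both changes were small in fold and rested on the highest counts of the set. FN1 spans 215360440 to 215436073 of chromosome 2 (minus strand) with no overlapping gene. VIM spans 17228241 to 17237593 of chromosome 10 (plus strand), where the antisense VIM-AS1 had 31 to 41 counts in NC and 32 to 37 in OE.

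The promoters of FN1 and VIM are shown because both genes fell by a like amount and their listed promoters differ in base composition. Which start sites were used in these cells was not measured. The 250 bases before the RefSeq start site were taken on build GRCh38.p14, and the capitals mark the cyclic AMP response element TGACGTCA and the GC box GGGCGG, searched on both strands. The GC boxes of FN1 overlap each other in part.
FN1, chr2:215436069-215436318, minus strand: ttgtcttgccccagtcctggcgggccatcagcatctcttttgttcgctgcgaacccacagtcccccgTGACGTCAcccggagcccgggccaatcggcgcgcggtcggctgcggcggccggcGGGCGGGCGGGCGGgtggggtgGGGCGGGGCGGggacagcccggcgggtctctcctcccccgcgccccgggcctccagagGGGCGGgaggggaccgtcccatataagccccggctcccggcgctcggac
VIM, chr10:17227991-17228240, plus strand: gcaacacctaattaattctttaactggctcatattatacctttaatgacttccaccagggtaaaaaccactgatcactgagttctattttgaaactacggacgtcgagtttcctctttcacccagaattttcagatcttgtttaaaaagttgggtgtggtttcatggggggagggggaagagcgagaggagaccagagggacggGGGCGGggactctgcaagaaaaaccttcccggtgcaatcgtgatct
The FN1 window had a GC content of 76.4%, with 6 GC boxes and 1 response element that starts 183 bases before the start site. The VIM window had a GC content of 46.0% with 1 GC box, 46 bases before the start site, and no response element. The GC box was found in 42.6% of 35116 promoters of the same length and the response element in 1.65%. Neither window held the E-box CACCTG, the letters bound by SNAI and ZEB factors, which was in 17.5% of all promoters. Such matches are letters in a window and were not tied to binding in these cells. Promoter sequences were given for CDH2, VIM, FN1, ZEB1 and ZEB2, and CDH1, SNAI1, SNAI2, TWIST1 and HMGA2 had no entry.

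Among the 5 repressors, SNAI2 and ZEB2 rose while SNAI1, ZEB1 and TWIST1 did not pass the test. Summed over the 5 genes, FPKM was 29.12 ± 0.4202 in NC and 40.42 ± 1.249 in OE (SD, n = 3 each). The sum ranged from 28.71 to 29.55 in NC and from 39.32 to 41.78 in OE. Most of it was SNAI2 in both groups, with 56.65% ± 1.091 (SD, n = 3) of the sum in NC and 68.36% ± 0.818 (SD, n = 3) in OE. ZEB1 made up 16.7% in NC and 12.69% in OE, and TWIST1 13.9% and 9.462%. The shares of ZEB1, TWIST1 and SNAI1 are tied to the growth of SNAI2, because shares of a sum add to a fixed total. Both the sum and the shares also rest on the transcript lengths behind the FPKM, which are not given.

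SNAI2 encodes Slug, a zinc finger repressor of E-cadherin that is also active in neural crest and wound repair. SNAI2 was counted 1994, 2174 and 2059 times in NC and 3790, 3749 and 3409 times in OE. In CPM it went from 58.8 ± 2.59 to 97.1 ± 4.82 (SD, n = 3 each), a fold of 1.65 (log2 fold change 0.72, SE 0.06, adjusted p = 9.67e-10). The lowest OE sample, at 93.8 CPM, stood well above the highest NC sample, at 61.8 CPM. Leaving out 1 sample at a time gave values of 0.69 to 0.76 on the log2 scale, the narrowest range among the 5 repressors. The gene spans 48917598 to 48921740 of chromosome 8 (minus strand).

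SNAI1 and TWIST1, the other well known E-cadherin repressors, had the fewest counts among the repressors in both groups. In the deposited FPKM both lay above ZEB2. In NC they had 2.567 and 4.047 FPKM against 1.147, and in OE 2.333 and 3.823 FPKM against 1.503. In CPM both lay below ZEB2, which stood at 32.4 in NC and 41.9 in OE. The FPKM rank of ZEB2 thus rests on the transcript lengths that the authors used. SNAI1 encodes Snail and was counted 182, 164 and 157 times in NC and 173, 162 and 145 times in OE. Its CPM was 4.75 ± 0.439 in NC and 4.26 ± 0.374 in OE (SD, n = 3 each), with overlapping samples and a 95% interval of the log2 fold change of -0.43 to 0.12 (adjusted p = 0.342). TWIST1, a basic helix-loop-helix factor of mesoderm, was counted 316, 300 and 313 times in NC and 322, 340 and 262 times in OE. Its CPM was 8.77 ± 0.284 (SD, n = 3) and 8.18 ± 0.838 (SD, n = 3), with an interval of -0.32 to 0.12 (adjusted p = 0.45). For both genes the intervals exclude a rise of the size seen for SNAI2. SNAI1 spans 49982980 to 49988886 of chromosome 20 (plus strand) and TWIST1 19020991 to 19117636 of chromosome 7 (minus strand).

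ZEB2, a zinc finger homeobox repressor, rose modestly, and its paralog ZEB1 did not pass the test. ZEB2 was counted 1118, 1180 and 1139 times in NC and 1473, 1479 and 1761 times in OE. Its CPM was 32.4 ± 0.963 in NC and 41.9 ± 5.81 in OE (SD, n = 3 each), a fold of 1.29 (log2 fold change 0.37, SE 0.08, adjusted p = 0.000629). OE replicate 3 was the highest, at 48.5 CPM, and the remaining samples gave a log2 fold change of 0.25. ZEB1 was counted 1479, 1645 and 1717 times in NC and 1748, 1703 and 1888 times in OE. Its groups overlapped at 45.7 ± 2.79 and 47.5 ± 4.45 CPM (SD, n = 3 each), with a log2 fold change of 0.05 and a 95% interval of -0.09 to 0.20 (adjusted p = 0.537). The highest ZEB1 value, 52.0 CPM, was also that of OE replicate 3, and without that sample the log2 fold change was -0.02. Whether ZEB1 and ZEB2 differed in their response was not tested. ZEB1 spans 31318495 to 31529814 of chromosome 10 (plus strand) and ZEB2 144364364 to 144521057 of chromosome 2 (minus strand). Their antisense transcripts were rare. ZEB1-AS1 had 30 to 40 counts in NC and 40 to 50 in OE, and ZEB2-AS1 had 1 to 4 in NC and 2 to 3 in OE.

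Both ZEB genes are the classical targets of the miR-200 family, small RNAs of epithelial cells that bind their 3′ UTRs, and miR-205 is known to act on them too. The family has 2 seeds, the bases 2 to 8 that pair with the target, and the mature sequences from RefSeq are shown with that seed in capitals because the match in the UTR is read from it.
miR-200b-3p: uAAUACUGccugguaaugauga
miR-200c-3p: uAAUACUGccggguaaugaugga
miR-429: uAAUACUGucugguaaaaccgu
miR-200a-3p: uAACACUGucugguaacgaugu
miR-141-3p: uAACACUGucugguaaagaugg
miR-205-5p: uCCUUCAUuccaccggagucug
The first 3 share the seed AAUACUG and the next 2 share AACACUG. The 3′ UTR of ZEB1 (MANE Select transcript in GENCODE 44, 2540 bases) held 6 matches to the first seed and 3 to the second, with 1 match to miR-205. The ZEB2 UTR (5370 bases) held 5 and 4 matches and none to miR-205. At least 1 match to the first seed was found in 26.0% of UTRs within 25% of the length of ZEB1, and as many as 6 in 0.0343%. For ZEB2 the corresponding shares were 45.5% and 0.0678%. FN1 held 2 matches to the first seed in 690 bases, a number reached by 0.249% of UTRs of like length, and SNAI2 held 1, as 11.9% of UTRs of like length did. The other 6 members held no match to either miR-200 seed. The first match of ZEB1, ZEB2 and FN1, which held more than 1, is shown on GRCh38, with capitals on the bases that pair with the seed.
ZEB1, chr10:31527611-31527640, plus strand: atctggcattgttttatcttatCAGTATTa
ZEB2, chr2:144389052-144389081, minus strand: aggtgcccgcactaccatacatCAGTATTt
FN1, chr2:215361303-215361332, minus strand: cttcgaagtattcaataccgctCAGTATTt
A match is a description of the sequence. The small RNAs themselves are not captured by these mRNA libraries, so the matches were not set against their levels.

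The host transcripts from which such small RNAs are cut were read in their place, and were chosen after their values had been seen. MIR200CHG, the host of miR-200c and miR-141, had 1, 0 and 4 counts in NC and 0 in each OE sample, too few to be tested. No host was read for miR-200b, miR-200a and miR-429, which lie elsewhere, on chromosome 1. MIR205HG, the host of miR-205, was counted 90, 117 and 126 times in NC and 18, 29 and 17 times in OE. In CPM it fell from 3.14 ± 0.486 to 0.563 ± 0.148 (SD, n = 3 each), which is a log2 fold change of -2.46 (SE 0.24, adjusted p = 2.73e-08). Each OE sample was below each NC sample. The mature miR-205 was not measured, so the host count shows the precursor transcript only. The host spans 209428817 to 209432848 of chromosome 1 (plus strand).

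HMGA2 rose the most among the members. Its counts were 3796, 3706 and 3847 in NC and 8584, 9277 and 9623 in OE. The 3 NC samples lay within 105.3 to 109.1 CPM, and every OE sample, at 232.5, 234.6 and 264.9 CPM, lay far above their highest value. Its CPM was 107.1 ± 1.90 in NC and 244 ± 18.1 in OE (SD, n = 3 each), a fold of 2.28 (log2 fold change 1.19, SE 0.06, 95% interval 1.07 to 1.30, adjusted p = 3.41e-13). HMGA2 ranked 60 by p-value among the 15878 tested genes. Left-out samples gave a log2 fold change of 1.12 to 1.23. HMGA2 spans 65824460 to 65966291 on the plus strand of chromosome 12. The antisense RPSAP52 at that locus had 1 to 2 counts in NC and 4 to 12 in OE, against 3706 to 9623 for HMGA2.

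HMGA1, the paralog of HMGA2 and a chromatin protein of the same AT-hook family, rose as well. It was counted 24234, 22372 and 24012 times in NC and 50906, 57564 and 47414 times in OE. Its CPM was 666.6 ± 30.4 in NC and 1380 ± 75.3 in OE (SD, n = 3 each), a fold of 2.07 (log2 fold change 1.05, SE 0.06, adjusted p = 2.93e-12). A difference between the fold changes of HMGA1 and HMGA2 was not tested.

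HMGA2 is the best known target of the let-7 family, which pairs with its long 3′ UTR. The let-7 members share the seed GAGGUAG, shown in capitals for the 3 that lie in the same host gene.
let-7a-5p: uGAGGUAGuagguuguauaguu
let-7f-5p: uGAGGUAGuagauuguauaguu
let-7d-5p: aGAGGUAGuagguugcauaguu
The 3′ UTR of HMGA2 (2999 bases, MANE Select) held 4 matches to that seed. As many were found in 0.0726% of UTRs within 25% of that length, and at least 1 in 15.0%. CDH1 held 1 match, which 12.2% of UTRs of like length also had, and the other 8 members held none. The 4 stretches of HMGA2 are shown on the plus strand of GRCh38, with the paired bases in capitals.
HMGA2 match 1, chr12:65963293-65963320: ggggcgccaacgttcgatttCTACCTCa
HMGA2 match 2, chr12:65964526-65964555: aatatatccccactactcaataCTACCTCt
HMGA2 match 3, chr12:65964938-65964967: ggactaattgacttgcaaagacCTACCTCc
HMGA2 match 4, chr12:65965791-65965820: gttgtacaatcaaaacacactaCTACCTCt
The first match lies directly behind the coding sequence, 21 bases into the UTR, and the others lie 1256, 1668 and 2521 bases into it.

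MIRLET7A1HG, the host of let-7a-1, let-7f-1 and let-7d, was named after its values had been seen. It was counted 64, 95 and 57 times in NC and 109, 125 and 112 times in OE. Its CPM was 2.04 ± 0.584 in NC and 3.07 ± 0.106 in OE (SD, n = 3 each) (log2 fold change 0.59, SE 0.19, adjusted p = 0.0137). The host rose, as HMGA2 did, but its call did not hold without NC replicate 1 (adjusted p = 0.0564) or without NC replicate 3 (adjusted p = 0.0803). Mature let-7 was not measured, so the host count shows the precursor transcript only, and a link with HMGA2 was not tested. The hosts MIRLET7BHG and MIR100HG, also named after their values were seen, had at most 8 counts in any sample and could not be tested.

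LIN28A and LIN28B, which block the maturing of let-7, had at most 5 and 2 counts in any sample. Of the 16 listed genes of the HMGA and let-7 axis, 12 were tested, with a median log2 fold change of 0.14. Of those 12, 6 rose, 2 fell and 4 did not pass, while 24.9% of all tested genes rose and 23.7% fell. Beside HMGA1, DICER1, the enzyme that cuts small RNA precursors, rose from 33.7 ± 2.60 to 45.0 ± 7.16 CPM (SD, n = 3 each; log2 fold change 0.41, SE 0.09, adjusted p = 0.000553; 0.28 without OE replicate 3). IGF2BP1, an RNA-binding protein of the oncofetal class named after its values were seen, rose by 0.21 on the log2 scale (adjusted p = 0.0036), while its relative IGF2BP3 fell by 0.35 (SE 0.06, adjusted p = 3.07e-05), from 74.9 ± 3.30 to 58.7 ± 3.48 CPM (SD, n = 3 each). ARID3B, a DNA-binding factor that is also a let-7 target, fell by 0.54 on that scale (SE 0.08, adjusted p = 1.71e-05), from 20.0 ± 1.94 to 13.8 ± 0.106 CPM (SD, n = 3 each). The genes of this list therefore did not share a direction.

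The 3 genes whose CPM followed HMGA2 most closely over the 6 samples were NOLC1, RP11-321N4.5 and RIOX2. The Pearson r of log2 CPM was 0.99953, 0.99952 and 0.99948, over 6 samples that share the groups as their main difference. NOLC1 rose from 590.3 to 876.4 CPM, RP11-321N4.5 from 494.7 to 664.9 CPM and RIOX2 from 26.59 to 38.86 CPM. As many as 605 of 11770 genes had an r above 0.98, so a high r sets none of these genes apart.

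In FPKM, the order of the members by level was almost kept between the groups. In NC it ran FN1 (432.5 ± 15.35 FPKM), VIM (174.9 ± 7.767), CDH2 (18.89 ± 0.468), SNAI2 (16.5 ± 0.535), HMGA2 (6.553 ± 0.200), ZEB1 (4.863 ± 0.263), TWIST1 (4.047 ± 0.182), SNAI1 (2.567 ± 0.261), ZEB2 (1.147 ± 0.0252) and CDH1 (0.3133 ± 0.0306), each as mean and SD of 3 samples. In OE the order differed in 1 place, where SNAI2 (27.63 ± 0.993 FPKM) passed CDH2 (19.82 ± 0.424 FPKM). HMGA2, at 15.13 ± 1.32 FPKM in OE, kept its place between the CDH2 and SNAI2 pair and ZEB1 but moved up towards the former. The sample ranges of neighbours in the order did not overlap in either group, so the order itself did not depend on single samples. It does depend on the transcript length used for each gene. In CPM, HMGA2 stood above SNAI2 in both groups, at 107.1 against 58.8 in NC and 244 against 97.1 in OE. In CPM it also passed CDH2, which stood at 175.9 in NC and 182.1 in OE. FPKM levels ran from matrix and filament genes at the top, through the HMGA and Slug genes, to E-cadherin at the bottom in both NC and OE.

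**Figure D3:**
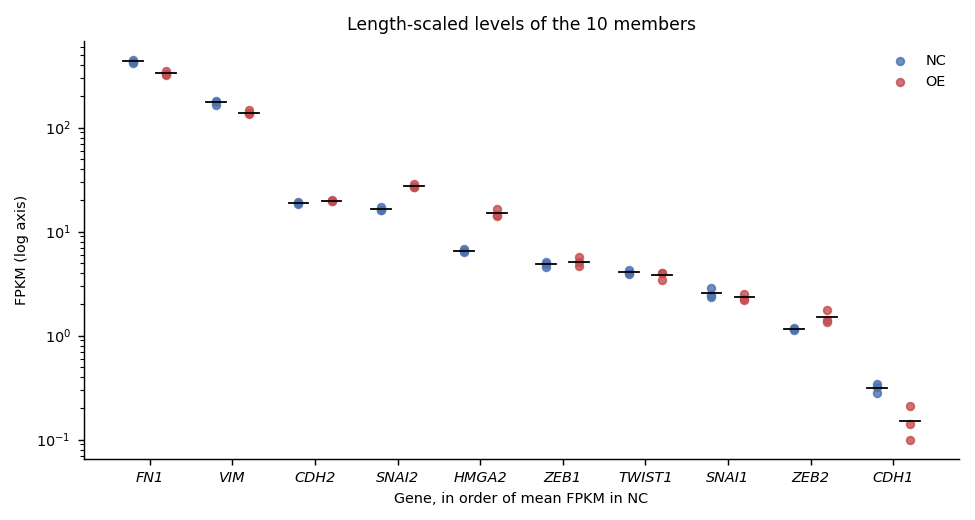
FPKM of the 10 genes on a log axis, ordered by the NC mean; points are the 3 NC and 3 OE samples and the line is their mean. FN1 and VIM stand at the top, CDH1 at the bottom with 0.3133 FPKM in NC and 0.15 FPKM in OE, and SNAI2 exceeds CDH2 in OE only.

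Other genes of the same programme were read from 5 lists with 94 entries, of which 75 were tested. Of these 75, 13 rose, 33 fell and 29 did not pass the test, with a median log2 fold change of -0.16. The median over all tested genes was -0.0032, and the background shares are the 24.9% and 23.7% given above. The lists were not tested as sets, and they were written with earlier results of these data known.

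Of 22 epithelial junction and keratin genes, 2 rose, 12 fell and 8 did not pass, with a median log2 fold change of -0.25. Among all tested genes 24.9% rose and 23.7% fell. CD24, a surface glycoprotein of tubule progenitors, fell from 49.8 ± 0.983 to 14.1 ± 0.468 CPM (SD, n = 3 each; log2 fold change -1.82, SE 0.07, adjusted p = 1.02e-14). CDH6, the kidney cadherin, fell from 176.2 ± 2.00 to 49.8 ± 0.955 CPM (log2 fold change -1.82, SE 0.05, adjusted p = 8.23e-17). Per length, CDH6 stood at 13.05 ± 0.2759 FPKM in NC and 3.737 ± 0.06506 FPKM in OE (SD, n = 3 each), below CDH2 in both groups. In CPM, CDH6 was near CDH2 in NC (176.2 against 175.9) and below it in OE (49.8 against 182.1). CDH16, kidney-specific cadherin, fell by 0.81 on the log2 scale (SE 0.12, adjusted p = 8.17e-06) and JUP, plakoglobin of the junction plaque, by 0.69 (SE 0.06, adjusted p = 1.39e-08). Named after their values were seen, the keratins KRT8 and KRT19 both stood at -0.48 on the log2 scale (adjusted p = 5.04e-07 and 8.14e-07) and KRT7 at 0.36 (adjusted p = 8.56e-05), while KRT18, the partner of KRT8 in filaments, was at 0.02 (adjusted p = 0.747). EPCAM, an epithelial adhesion molecule, and the tight junction scaffold TJP1 were also named after their values were seen. EPCAM went from 320.9 to 272 CPM (adjusted p = 0.000756) and TJP1 from 85.7 to 117.2 CPM (adjusted p = 3.4e-06), so junction genes were not uniform.

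Of the mesenchymal matrix and cytoskeleton genes, 12 of 18 tested fell and none passed as higher, against 23.7% and 24.9% of all tested genes. The list held 24 genes, and 6 of those tested did not pass, with a median log2 fold change of -0.30. TAGLN, the actin-binding transgelin of smooth muscle, fell from 98.1 ± 5.16 to 23.5 ± 0.695 CPM (SD, n = 3 each; log2 fold change -2.06, SE 0.06, adjusted p = 1.58e-16). CNN1, calponin, fell from 33.4 ± 1.41 to 10.1 ± 0.747 CPM (log2 fold change -1.72, SE 0.08, adjusted p = 3.5e-13). THBS1, the matrix protein thrombospondin, and COL1A1, a collagen chain, both stood at -0.99 on the log2 scale (SE 0.05 and 0.10, adjusted p = 4.24e-12 and 5.73e-08). SPARC, a collagen-binding matrix protein, was named after its values were seen and stood at -0.83 on that scale (adjusted p = 1.19e-11). FN1 and VIM, which are not counted in this list, fell as well. Summed over 8 fibroblast markers, CPM was 18.27 to 19.51 in NC and 8.423 to 8.828 in OE. Of those markers PDGFRA, COL3A1 and FAP had at most 3 counts in every sample, 3 were tested, and COL1A1 and LUM, the latter named after its values were seen, fell. As 5 of the 8 are also in the mesenchymal list, the marker sum is not a separate measure, and its part in the result was not tested.

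Of 12 other transcription factors of the transition that were tested, 1 rose, 5 fell and 6 did not pass (median log2 fold change -0.21). Over all tested genes 24.9% rose and 23.7% fell. ID1, an inhibitor of basic helix-loop-helix factors that is a target of BMP and TGF-beta signalling, fell from 14.8 ± 2.47 to 2.72 ± 0.230 CPM (SD, n = 3 each; log2 fold change -2.44, SE 0.13, adjusted p = 2.93e-12), and its relative ID3, named after its values were seen, stood at -1.65 on the log2 scale (adjusted p = 1.3e-07). KLF8, also named afterwards, had only 3 to 23 counts in any sample. TEAD1, the DNA-binding partner of YAP1, was the gene that rose, from 21.5 ± 2.04 to 28.4 ± 2.41 CPM (SD, n = 3 each; log2 fold change 0.40, SE 0.08, adjusted p = 0.000428). SOX4 fell by 0.37 on the log2 scale (SE 0.06, adjusted p = 3e-05), and FOXC1 fell by 0.21 (SE 0.08, adjusted p = 0.0421), a call that was lost in 5 of the 6 fits that left out a sample.

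The list of transcription and splicing factors around the epithelial state held genes that rose and genes that fell. Of 11 tested, 4 rose, 2 fell and 5 did not pass (median log2 fold change 0.16). The shares over all tested genes were 24.9% higher and 23.7% lower. KLF4, a zinc finger factor that activates CDH1 in other epithelia, rose from 7.92 ± 0.634 to 27.4 ± 1.52 CPM (SD, n = 3 each; log2 fold change 1.79, SE 0.09, adjusted p = 5.54e-13), and its relative KLF5 from 36.9 ± 0.499 to 73.8 ± 4.26 CPM (log2 fold change 1.00, SE 0.06, adjusted p = 1.14e-11). The epithelial factor ELF3 fell from 89.6 ± 1.27 to 47.2 ± 3.09 CPM (log2 fold change -0.93, SE 0.06, adjusted p = 2.59e-11). Of the 4 that rose, QKI and RBFOX2 are splicing factors known to favour mesenchymal exons, so they do not stand for the epithelial state. QKI rose from 81.1 ± 6.69 to 112.8 ± 9.45 CPM (log2 fold change 0.48, SE 0.06, adjusted p = 3.28e-06). Named after their values were seen, RBFOX2 stood at 0.16 on the log2 scale (adjusted p = 0.0177; 0.11 without NC replicate 3 and 0.0616 without OE replicate 3) and ESRP2, an epithelial splicing factor, at -0.28 (adjusted p = 0.0048). KLF4 and CDH1 went in opposite directions in these samples.

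**Figure D4:**
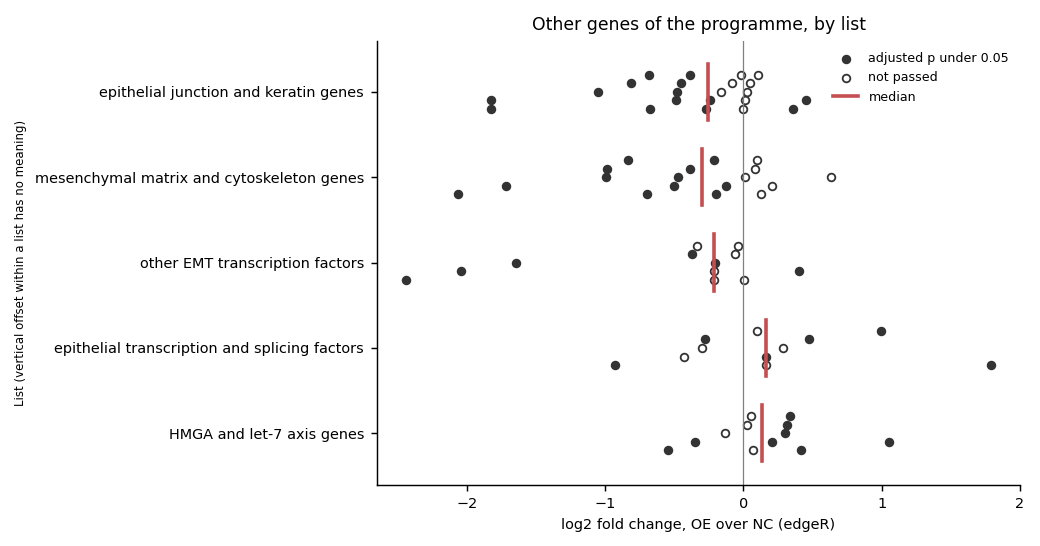
Log2 fold change of OE over NC (horizontal axis) for each tested gene of the 5 lists (vertical axis); filled points passed at an adjusted p under 0.05, open points did not, and the red bar is the list median. The 3 upper lists have medians below 0 (-0.25, -0.30 and -0.21) and the lower pair medians above 0 (0.16 and 0.14).

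Markers of other cell types were low or moved little in sum. Proximal tubule markers summed to 5.367 to 6.847 CPM in NC and 3.791 to 4.527 in OE. Of 5 tested, 0 rose and 3 fell, while 24.9% of all tested genes rose and 23.7% fell. Nephron epithelium markers summed to 476.5 to 497.3 CPM and 459.7 to 487.5, and podocyte markers to 87.84 to 91.39 and 76.08 to 80.87. Endothelial markers summed to 5.115 to 6.563 CPM in NC and 7.149 to 8.203 in OE, and leukocyte markers to 0.4885 to 0.7231 and 0.2202 to 0.352, with PTPRC and CD3E at no more than 3 counts in any sample. In bulk RNA, fewer cells of a type and less RNA per cell cannot be told apart.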

How the data were processed

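RNA of 6 HK-2 samples was sequenced after mRNA selection with a stranded kit. Per the study's methods, the authors trimmed reads with FASTX-Toolkit, used HISAT2 to align them to GRCh38, and kept reads with a unique position for counting. The deposited counts are unnormalized reads for each of 31369 genes. The deposited FPKM values, for 30896 genes, were scaled by the authors to transcript length and mapped fragments and rounded. The submitters' processing notes also list mm10. The counting program, annotation and strand setting are not given in the sources used here, so counts of overlapping genes are uncertain.

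From the counts, edgeR 4.0.16 (R 4.3.3; filterByExpr, TMM, quasi-likelihood test) compared OE with NC without covariates, and Benjamini-Hochberg adjustment covered all 15878 genes tested. Permutation tests were exact and two-sided. Alternatives were DESeq2 1.42.0, limma 3.58.1 on log2(FPKM + 1) and log2(FPKM + 0.1), other scalings and count filters, the replicate number as a block, and each sample left out. Of these fits, only the main edgeR fit was tried on simulated counts.

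The members and gene lists were chosen with earlier results of these data known. Named are the members, PPM1K, genes overlapping a member and the 3 genes most like HMGA2. Per list, up to 4 genes are named, with a mean count of at least 100, an adjusted p under 0.05 and the largest change. Cell type markers and list genes with low counts are named too, and others are marked as chosen after their values were seen. Coordinates and UTRs came from GENCODE 44, where 99.8% of gene identifiers were found, and miRNA and promoter sequences from RefSeq (GRCh38.p14). Figures were drawn with matplotlib 3.10.9. Some single-gene results are not reported here.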

Additional observations from a re-analysis of the deposited data

How the results depend on the processing

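In each of the 14 alternatives 3 members were called higher and 3 lower. Of 140 refitted member values 139 kept their direction and their side of the threshold. The exception was ZEB1, which was never called: its log2 fold change ranged from -0.018 (without OE replicate 3) to 0.12 (without OE replicate 2). Of 489 refitted values of 35 other named genes, 469 kept direction and call, 18 lost the call and 2 reversed. The reversals were both of KRT18, also not called, at -0.014 with upper quartile normalization and from -0.017 (without NC replicate 2) to 0.062 (without OE replicate 3) when samples were left out. The lost calls were those of FOXC1 (10 fits), RBFOX2 (4 fits, adjusted p = 0.0552 with the replicate block), MIRLET7A1HG (2 fits) and KLF8 (2 fits, both on FPKM). The pathway genes called higher numbered 12 to 13 and those called lower 27 (limma on log2(FPKM + 1)) to 36 (upper quartile normalization).

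The CDH1 call rests on at most 80 counts a sample, and its log2 fold change shrank to -0.75 on log2(FPKM + 0.1) and -0.19 on log2(FPKM + 1), where its values were 0.10 to 0.34 FPKM. That of ZEB2 was 0.22 on log2(FPKM + 1). Samples with the same replicate number did not deviate together over the tested genes (correlations of -0.0032, -0.066 and -0.054). The correlations cannot settle whether such samples were handled together, and the labels do not say. With the replicate number as a block, 3 members were again called higher and 3 lower, HMGA2 was at 1.19 and CDH1 at -1.12 on the log2 scale, and 12 pathway genes were called higher and 30 lower. With 3 samples a group, no outlier test was made, and the exact permutation test cannot go below 0.1.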
